A study of Mus musculus with 12 samples.

Results

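Retinal RNA of 2 mouse strains was read here through 183 genes that carry a pseudogene name, the symbol of another gene followed by -ps. They were chosen by their mean level, at least 0.5 CPM (the count scaled to a common library total) over 12 libraries, out of 1688 -ps genes and 56748 genes in the table. For 160 of them the gene named before the -ps, called the parent below, was also in the table, and these 160 copies had 130 different parents. The mean level was the only measured value used, so it is given as a description and was not tested. Just inside the limit stood Ybx1-ps2 (0.523 CPM), Cdv3-ps (0.520 CPM) and Hmgb1-ps1 (0.509 CPM), and just outside it Glud-ps (0.499 CPM), Rbm6-ps1 (0.490 CPM) and Ppp1r2-ps4 (0.476 CPM). A group mean was under 0.5 CPM in at least 1 group for 31 copies. In 4 of them both control groups were under it and in 5 both JR5558 groups, so these 9 met the limit only through the strain where they were higher.

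The libraries were made from poly-A RNA of whole retinas, each from a separate mouse. JR5558 is an inbred line that forms new vessels under the retina spontaneously, and is known to carry Crb1 rd8 and a Jak3 allele, which the labels do not list. Wild-type C57BL/6J mice were the controls. Each strain was sampled at 4 weeks and at 8 weeks of age, with 3 mice per group. The JR5558 and control mice differ in whatever else separates these lines, so strain here means all such differences together.

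A processed pseudogene arises when the messenger RNA of a gene is copied back into DNA by the reverse transcriptase of a transposable element and inserted elsewhere in the genome. The copy lacks the introns and the promoter of its parent, and often gathers base changes over time. Highly expressed housekeeping genes, those of ribosomal proteins in particular, have left many such copies. A copy that is still almost identical to its parent can share sequencing reads with it, so counts of copy and parent are both uncertain where the counting could divide them.

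The name and the annotation did not fully match. In the deposited annotation 137 of the 183 genes were processed pseudogenes and 14 transcribed processed pseudogenes, 151 together. A further 13 were protein coding, 10 transcribed unprocessed, 4 transcribed unitary, 4 unprocessed and 1 an unspecified pseudogene. The 183 genes are therefore called named copies below, and the annotation is given where it is not that of a processed pseudogene.

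How close a copy can be to its parent is seen in 5 pairs, taken from the 7 copies leading the strain comparison and aligned by substitutions alone. For each pair, 100 bases of the copy's transcript stand above the matching bases of the parent, with the bases that differ in capitals (sequences from GENCODE M21, GRCm38, 5′ to 3′ on the transcript's strand).
Atp6v0c-ps2: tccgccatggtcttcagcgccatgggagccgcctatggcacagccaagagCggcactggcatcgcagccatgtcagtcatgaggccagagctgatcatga
Atp6v0c: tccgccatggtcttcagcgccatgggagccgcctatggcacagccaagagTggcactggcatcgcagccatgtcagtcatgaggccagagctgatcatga
Ndufs5-ps: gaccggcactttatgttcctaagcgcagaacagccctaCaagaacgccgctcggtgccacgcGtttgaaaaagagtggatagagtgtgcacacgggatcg
Ndufs5: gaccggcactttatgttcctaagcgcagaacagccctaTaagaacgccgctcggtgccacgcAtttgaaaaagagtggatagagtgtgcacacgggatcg
Rnps1-ps: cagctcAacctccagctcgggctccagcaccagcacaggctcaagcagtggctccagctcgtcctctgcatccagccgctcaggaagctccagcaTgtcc
Rnps1: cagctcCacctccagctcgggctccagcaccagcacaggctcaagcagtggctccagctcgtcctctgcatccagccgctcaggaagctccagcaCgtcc
Rps13-ps1: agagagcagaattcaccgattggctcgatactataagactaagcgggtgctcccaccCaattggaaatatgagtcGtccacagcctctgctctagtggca
Rps13: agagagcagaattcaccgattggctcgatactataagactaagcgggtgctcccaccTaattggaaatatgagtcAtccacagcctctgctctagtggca
Rpl3-ps1: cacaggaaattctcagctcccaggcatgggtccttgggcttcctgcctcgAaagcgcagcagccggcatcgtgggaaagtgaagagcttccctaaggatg
Rpl3: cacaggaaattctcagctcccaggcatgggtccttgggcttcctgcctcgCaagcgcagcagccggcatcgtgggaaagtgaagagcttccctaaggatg

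Substitutions are given as parent base, position counted from 1 at the 5′ end of the copy's transcript, and copy base. Atp6v0c-ps2 (chr6:37806086-37806550, plus strand) matched its parent at 464 of 465 bases and differed only by T111C. Ndufs5-ps (chr16:42955631-42955949, plus strand) differed at 2 of 319 bases, T81C and A105G. Rnps1-ps (chr6:7982541-7983383, minus strand) differed at 5 of 843 bases, C171A and C260T in the bases shown and T489C, T510C and C684T outside them. These are GRCm38 positions from GENCODE M21.

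Rps13-ps1 (chr8:87047689-87048226, plus strand) differed from Rps13 by T442C and A460G over 522 aligned bases. Rpl3-ps1 (chrX:13202571-13203780, plus strand) differed from Rpl3 at 2 of 1210 bases, C58A and T787C. All of these substitutions lay in the part that corresponds to the parent's coding sequence.

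Across all 160 copies with a parent, the identity over the aligned part ranged from 64.9% to 100% with a median of 99.3%. It reached at least 95% in 148 copies and 100% in 22. In some copies the aligned part was short. Among the 148, it was 22.4% of the length of Gpr137b-ps and 26.5% of that of Pisd-ps2. In Rps7-ps2, below 95%, it was 13 of 1347 bases. Parents had 1 copy among the named copies in 108 cases, 2 in 15, 3 in 6 and 4 in 1, the ribosomal protein gene Rps15a. Copies of 1 parent share its sequence and are not independent of each other.

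By the role of the parent, 64 of the 183 copies were those of cytosolic ribosomal proteins, 7 of chromatin and nucleic acid binding proteins, 5 of chaperone and protein turnover genes, 5 of the respiratory chain and ATP synthase, 3 of translation factors, 2 of iron and redox genes and 2 of the cytoskeleton. The other 95 fell into none of these lists. The highest mean levels were those of Atp6v0c-ps2 (109 CPM), Rpl17-ps10 (100.3 CPM), Rpl3-ps1 (83.2 CPM), Hmgn2-ps (76.1 CPM, annotated as protein coding), Ap2m1-ps (69.9 CPM), Gpx4-ps2 (68.7 CPM), Ubb-ps (59.5 CPM) and Rpl17-ps3 (57.1 CPM). Per length, the 160 copies had a median of 4.12 FPKM (fragments per kilobase of gene and per library size) against 33.9 FPKM for the 130 parents. These FPKM values are means over all 12 libraries, both strains together. In 25 copies the mean FPKM exceeded that of the parent, among them Atp6v0c-ps2, Ndufs5-ps, Rnps1-ps, Rpl17-ps10 and Rpl17-ps3. Of these, Atp6v0c-ps2, Ndufs5-ps and Rnps1-ps were high in JR5558 alone, as given below, so their excess does not hold for the controls.

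Library totals ran from 18029611 to 23739886 counts. A list of 8 rod markers was high in every library. Its sum overlapped between the strains at 4 weeks (54606 to 57742 CPM among controls, 53978 to 59604 CPM among JR5558) and did not at 8 weeks (61342 to 63339 CPM against 55330 to 56696 CPM). The sum of 4 Mueller glia markers overlapped at 4 weeks (2964 to 3495 CPM against 3455 to 4040 CPM) and not at 8 weeks (3240 to 3515 CPM against 4261 to 4413 CPM). Glul made up most of this sum and overlapped at 4 weeks (2251 to 2756 CPM against 2407 to 2894 CPM). Rlbp1 (422 to 480 against 684 to 800 CPM), Slc1a3 (186 to 226 against 245 to 272 CPM) and Kcnj10 (57.7 to 65.8 against 88.9 to 97.8 CPM) were already higher in JR5558 at 4 weeks, without overlap. Marker sums of other cells moved with strain as well: 12 pigment epithelium markers summed to 174 to 311 CPM (4 weeks) and 232 to 362 CPM (8 weeks) among controls, and to 447 to 633 CPM and 517 to 689 CPM among JR5558, with none at 0 in any library. Of these, Best1, Rrh and Mlana overlapped between the strains at both ages, and the others were higher in JR5558 without overlap. For 7 microglia and macrophage markers the sums were 27.6 to 30.01 CPM and 22.6 to 28.0 CPM among controls, and 37.9 to 43.3 CPM and 39.8 to 48.2 CPM among JR5558, with Aif1 at 0 in 1 library. Cx3cr1 overlapped at both ages and P2ry12 at 4 weeks. Tmem119 overlapped at 4 weeks and lay lower in JR5558 (2.01 to 2.59 CPM against 1.05 to 2.27 CPM). Csf1r, Aif1, Cd68 and Lgals3 were higher in JR5558 without overlap at both ages. Control replicate 3 of 4 weeks stood apart in the sum of 8 lens markers, at 129 CPM against 10.6 and 7.81 CPM in its group. Most of that sum was Cryaa (62.2 CPM), Cryba1 (27.7 CPM), Crybb2 (22.1 CPM) and Crygs (13.3 CPM). The next highest sums were 61.3 CPM (JR5558 replicate 1, 8 weeks), 44.6 CPM (control replicate 3, 8 weeks) and 31.6 CPM (JR5558 replicate 2, 4 weeks). Lim2 was at 0 in all 12 libraries, Crybb2 in 2, and Cryaa, Cryba1 and Crygs in 1. Without control replicate 3 of 4 weeks, 28 copies were called between the strains at 4 weeks in place of 27. The part of these cells in the strain differences was not tested, and in whole retinas fewer cells of a type and less RNA per cell cannot be told apart.

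In the 3 JR5558 retinas of 4 weeks, Xist (made from the inactive X) was at 0 to 0.263 CPM and the Y-linked Ddx3y at 64.9 to 79.0 CPM. The other 9 had Xist at 371 CPM or more and Ddx3y at 0. Strain and sex therefore cannot be told apart at 4 weeks, nor age and sex within JR5558. The 8-week strain comparison and the age comparison of controls were between libraries of 1 kind.

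Between the strains, a small set of copies differed by very large amounts and most did not pass the test. At 4 weeks, 27 of the 183 copies passed edgeR's quasi-likelihood test at a Benjamini-Hochberg adjusted p of 0.05 over all 18334 genes tested, 20 of them higher and 7 lower in JR5558. The background was 6.16% of all genes tested (3.27% higher, 2.9% lower), against 14.8% of the copies. At 8 weeks 22 copies passed, 18 higher and 4 lower, which is 12.0% of the copies against a background of 5.18% (2.54% higher, 2.63% lower). The parents stood at 10.0% and 7.69%, and the 585 other pseudogenes of at least 0.5 CPM at 5.81% and 4.62%. All 183 copies passed the filter on low counts.

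The choice by mean level bears on these shares and they support nothing on their own. The 4 copies under 0.5 CPM in both control groups (Ndufs5-ps, Rps2-ps6, Rps15a-ps3 and Rps15a-ps5) were all called higher at both ages. Of the 5 under it in both JR5558 groups, 3 were called lower at 4 weeks (Smarca5-ps, Rps13-ps2 and Gvin-ps7) and 2 at 8 weeks (Smarca5-ps and Rps13-ps2), while Hmgb1-ps1 and Cdv3-ps were not called. Among the other 174 copies, 20 were called at 4 weeks (16 higher, 4 lower, 11.5%) and 16 at 8 weeks (14 higher, 2 lower, 9.20%).

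The median log2 fold change of the copies was 0.01 at 4 weeks and 0.06 at 8 weeks, beside -0.00 for all genes tested at both ages. Within the 151 processed pseudogenes, 22 passed at 4 weeks (18 higher, 4 lower) and 19 at 8 weeks (16 higher, 3 lower). Past the threshold and at least 4-fold, 11 of the 183 copies were higher and 3 lower at 4 weeks, beside a background of 0.949% (0.551% higher, 0.398% lower). The same count at 8 weeks was 11 higher and 2 lower, beside 0.878% (0.518% higher, 0.36% lower). The lower ones were Smarca5-ps, Rps13-ps2 and, at 4 weeks only, Gvin-ps7. The higher ones included Ndufs5-ps, Rps2-ps6, Rps15a-ps3 and Rps15a-ps5 at both ages. All of these named copies met the 0.5 CPM limit only through the strain where they were higher. These counts therefore support nothing on their own either.

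At both ages 21 copies passed in the same direction, 17 higher and 4 lower in JR5558 (background 3.04%, of which 1.59% higher and 1.45% lower). They made up 77.8% of the 4-week calls and 95.5% of the 8-week calls. Among all genes tested, calls shared by both ages were 49.4% of the 4-week and 58.8% of the 8-week calls. Among the 585 other pseudogenes of at least 0.5 CPM they were 73.5% and 92.6%, so such sharing was not particular to the named copies. The 21 include Ndufs5-ps, Rps2-ps6, Rps15a-ps3, Rps15a-ps5, Smarca5-ps and Rps13-ps2, which met the 0.5 CPM limit only through 1 strain. The ages use separate mice of both strains. The groups did not overlap in 40 copies at 4 weeks and 52 at 8 weeks, 21.9% and 28.4% of the copies, near the background of 19.5% and 30.8%.

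**Figure D1:**
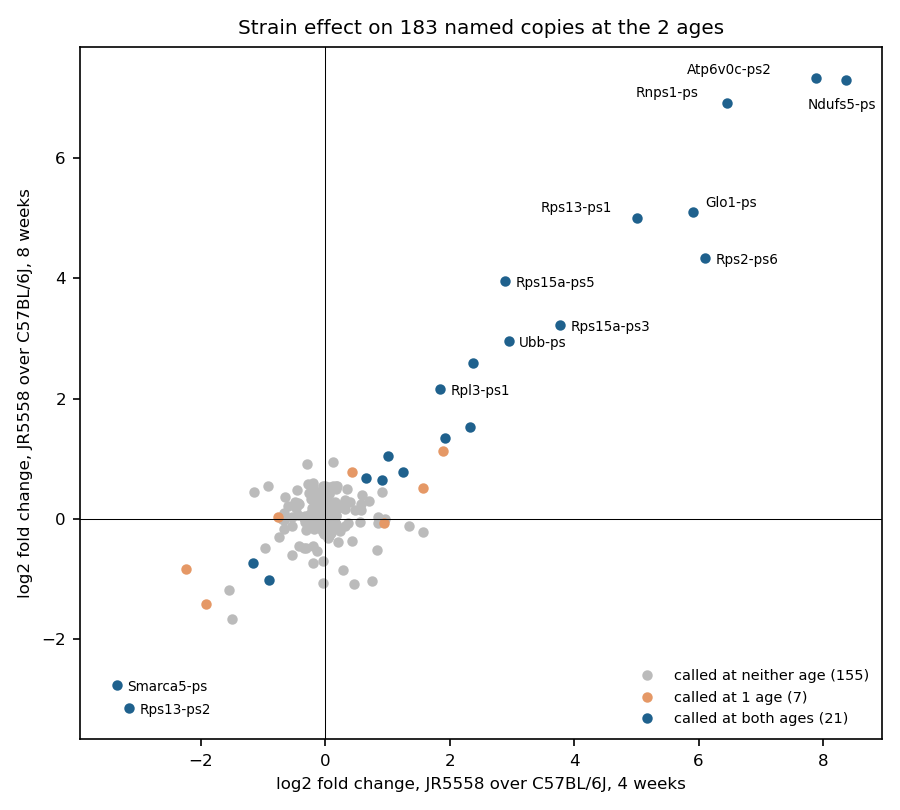
Strain effect on each of the 183 named copies, as log2 fold change (JR5558 over C57BL/6J) at 4 weeks on the x axis and at 8 weeks on the y axis, from edgeR fits with 3 retinas per group. Copies called at both ages (21) are dark blue, at 1 age (7) orange and at neither (155) grey, and 5 copies from Atp6v0c-ps2 to Rps13-ps1, at about 5 or more on both axes, stand far from the grey cloud around 0.

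The same 7 copies led the test at both ages: Atp6v0c-ps2, Rnps1-ps, Ndufs5-ps, Glo1-ps, Rps13-ps1, Ubb-ps and Rpl3-ps1. All 7 were higher in JR5558 without overlap. They were picked by adjusted p in these same strain comparisons, and Ndufs5-ps met the 0.5 CPM limit only through JR5558. The sums and shares that follow, also those of the copies left over, are therefore a description and support nothing on their own. The summed level of the 7 at 4 weeks was 49.4 ± 1.92 CPM (SD, n = 3) among controls and 579 ± 52.4 CPM among JR5558. The 8-week sums were 48.9 ± 2.90 CPM and 648 ± 46.3 CPM. They took 3.14% and 2.94% of the copies' counts among controls and 26.4% and 26.7% in JR5558. The other 176 copies summed to 1521 ± 70.2 CPM against 1610 ± 83.3 CPM at 4 weeks, which overlapped, and to 1617 ± 25.8 CPM against 1783 ± 91.0 CPM at 8 weeks, which did not.

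Atp6v0c encodes the proteolipid ring subunit of the vacuolar proton pump, which acidifies lysosomes and synaptic vesicles. At 4 weeks its copy Atp6v0c-ps2 stood at 0.943, 0.808 and 0.840 CPM in the control retinas and at 179, 197 and 245 CPM in the JR5558 retinas. At 8 weeks the values were 1.47, 1.24 and 1.41 CPM against 225, 220.0 and 239 CPM. The copy was thus close to 1 CPM in every control and far higher in every JR5558 library. The log2 fold change was 7.89 ± 0.16 (SE, adjusted p = 1.47e-16) at 4 weeks and 7.32 ± 0.15 (adjusted p = 1.77e-16) at 8 weeks.

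The parent Atp6v0c moved the other way. Controls stood at 312, 297 and 258 CPM and JR5558 at 110.1, 113 and 134 CPM at 4 weeks, and at 8 weeks the levels were 366, 343 and 337 CPM against 129.5, 133 and 139 CPM. The groups did not overlap, and the parent fell by 1.29 ± 0.09 (adjusted p = 6.45e-09) and by 1.42 ± 0.09 (adjusted p = 1.95e-09) on the log2 scale. With copy and parent summed into 1 row and the whole table refitted, the log2 fold change was 0.15 ± 0.09 (adjusted p = 0.422) at 4 weeks and 0.02 ± 0.09 (adjusted p = 0.960) at 8 weeks. The copy held 0.299% ± 0.0265 (SD) of the counts of the pair among controls and 63.4% ± 1.41 in JR5558 at 4 weeks, and 0.393% ± 0.0286 and 63.0% ± 0.604 at 8 weeks.

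Ndufs5, a subunit of respiratory complex I, showed the same arrangement. Ndufs5-ps had 0.0555, 0.269 and 0.0933 CPM among controls and 43.6, 42.9 and 56.9 CPM in JR5558 at 4 weeks, and 0.230, 0.216 and 0.731 CPM against 56.4, 65.1 and 69.6 CPM at 8 weeks. The log2 fold changes were 8.36 ± 0.30 (adjusted p = 8.68e-13) and 7.30 ± 0.26 (adjusted p = 6.85e-13). The control libraries were below 1 CPM throughout and no JR5558 library came near them. Both control group means were under 0.5 CPM, so the copy met that limit only through JR5558. Ndufs5-ps lay wholly inside Zbtb20 on the same strand in the deposited table. Zbtb20, a gene of a zinc finger repressor, did not pass at either age (-0.36 ± 0.13, adjusted p = 0.131, and -0.17 ± 0.13, adjusted p = 0.573).

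The parent Ndufs5 was at 77.5, 64.9 and 56.6 CPM among controls and 9.31, 9.87 and 14.6 CPM in JR5558 at 4 weeks, and fell by 2.57 ± 0.16 on the log2 scale (adjusted p = 1.32e-09). The 8-week levels were 69.1, 67.9 and 76.7 CPM against 16.8, 14.3 and 18.2 CPM, a log2 fold change of -2.16 ± 0.15 (adjusted p = 1.18e-08). Groups did not overlap at either age. The sum of the pair did not pass (-0.19 ± 0.13, adjusted p = 0.461, and 0.13 ± 0.13, adjusted p = 0.671). In JR5558 the copy held 81.1% ± 1.44 and 79.5% ± 2.47 of the pair's counts, and among controls 0.216% ± 0.177 and 0.531% ± 0.358.

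Rnps1 encodes an RNA-binding protein that joins the exon junction complex during splicing. Its copy Rnps1-ps stood at 0.777, 0.539 and 0.280 CPM among controls and at 47.0, 43.4 and 48.9 CPM in JR5558 at 4 weeks, and at 0.230, 0.325 and 0.575 CPM against 47.5, 45.2 and 47.1 CPM at 8 weeks. The JR5558 libraries were within a narrow range at both ages and far above every control. The log2 fold changes were 6.46 ± 0.20 (adjusted p = 9.03e-14) and 6.91 ± 0.21 (adjusted p = 8.19e-14). The parent fell by 1.69 ± 0.10 (adjusted p = 1.32e-09) and by 1.56 ± 0.10 (adjusted p = 4.37e-09) on the log2 scale. Here the sum fell as well, by 0.59 ± 0.09 (adjusted p = 0.000173) and by 0.57 ± 0.09 (adjusted p = 0.000239).

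**Figure D2:**
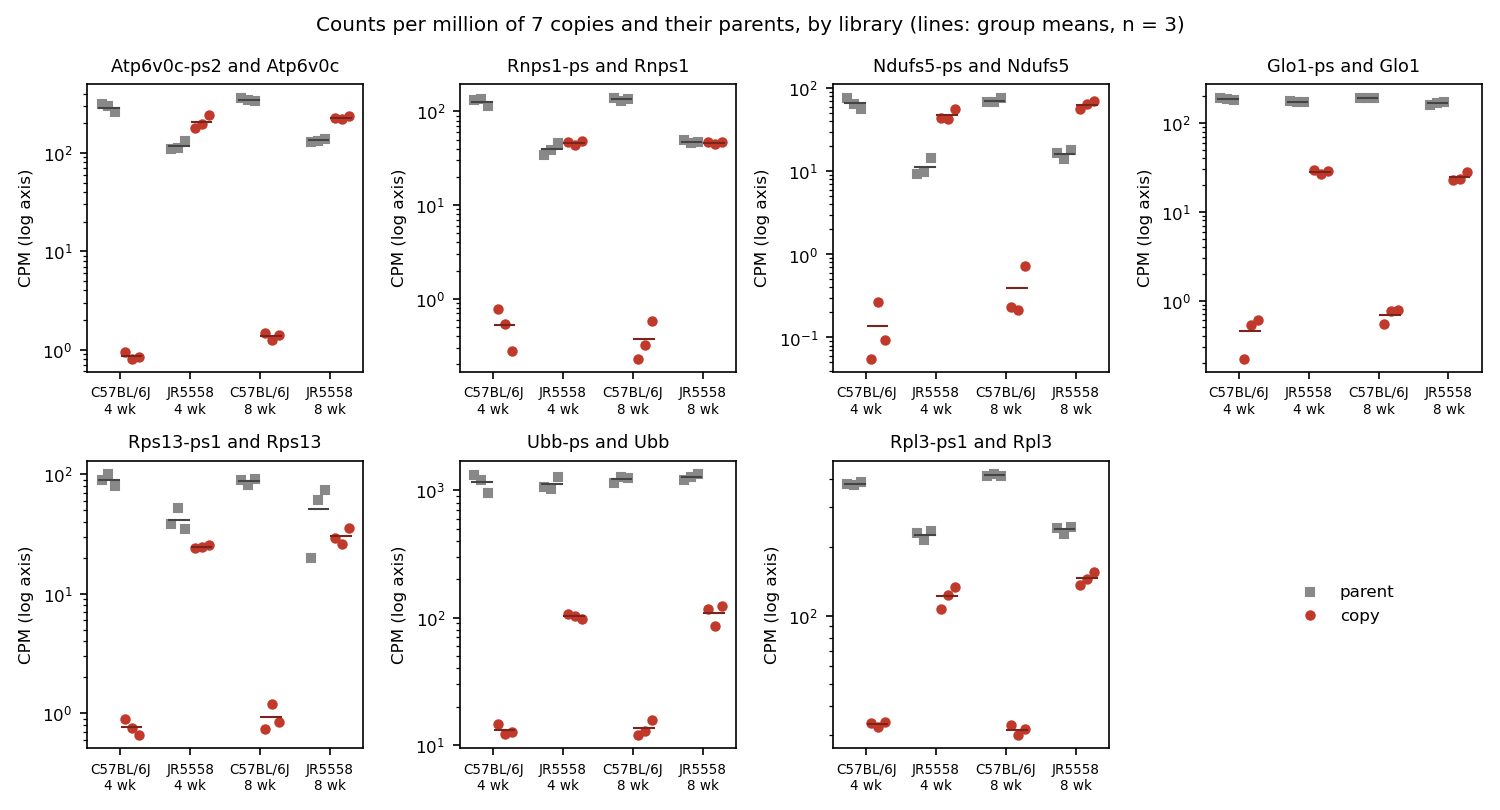
CPM (log axis) of the 7 leading copies (red circles) and their parents (grey squares) in each of the 12 retinas, with lines at the group means (n = 3). In Atp6v0c-ps2 and Ndufs5-ps the copy exceeds the parent in all 6 JR5558 libraries, and it lies far below the parent in all 6 C57BL/6J libraries.

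Glo1, glyoxalase 1, detoxifies methylglyoxal. Glo1-ps was at 0.222, 0.539 and 0.607 CPM among controls and 29.7, 26.7 and 28.7 CPM in JR5558 at 4 weeks, and at 0.552, 0.758 and 0.784 CPM against 22.7, 23.4 and 28.2 CPM at 8 weeks. The log2 fold changes were 5.90 ± 0.22 (adjusted p = 9.42e-13) and 5.11 ± 0.20 (adjusted p = 3.16e-12). Every JR5558 library was above every control by more than an order of magnitude. The parent was more abundant in CPM than the copy in all libraries, 179 to 193 CPM in controls and 159 to 177 CPM in JR5558. It did not pass at 4 weeks (-0.10 ± 0.07, adjusted p = 0.433). At 8 weeks it was lower (-0.23 ± 0.07, adjusted p = 0.0450), a call that ended when any 1 of the 6 libraries was left out (adjusted p 0.0702 to 0.253) as well as without a filter on low counts (adjusted p = 0.171) and without the 3 JR5558 libraries of 4 weeks (adjusted p = 0.0657). The sum did not pass (0.10 ± 0.07, adjusted p = 0.467, and -0.03 ± 0.07, adjusted p = 0.858).

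Ubb encodes a polyubiquitin precursor. Ubb-ps, annotated as a transcribed processed pseudogene, stood at 14.6, 12.2 and 12.7 CPM among controls and 107, 102 and 98.3 CPM in JR5558 at 4 weeks, and at 11.9, 12.9 and 15.8 CPM against 117, 85.5 and 124 CPM at 8 weeks. It rose by log2 fold changes of 2.95 ± 0.14 (adjusted p = 3e-11) and 2.97 ± 0.14 (adjusted p = 2.96e-11). Its control level was above 10 CPM in every library, unlike that of the copies above. Neither the parent (-0.06 ± 0.10, adjusted p = 0.809, and 0.02 ± 0.10, adjusted p = 0.969) nor the sum (0.04 ± 0.10, adjusted p = 0.882, and 0.12 ± 0.10, adjusted p = 0.593) passed. Ubb ranged over 946 to 1342 CPM over the 12 libraries.

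Among the copies of cytosolic ribosomal protein genes, 11 of 64 passed at 4 weeks (9 higher, 2 lower) and 8 of 64 at 8 weeks (7 higher, 1 lower). These are 17.2% and 12.5%, near the 14.8% and 12.0% of all named copies, beside 6.16% and 5.18% of all genes tested. The calls include Rps2-ps6, Rps15a-ps3, Rps15a-ps5 and Rps13-ps2, which met the 0.5 CPM limit only through 1 strain. Rps13-ps1 stood at 0.887, 0.754 and 0.653 CPM among controls and 24.2, 24.6 and 25.7 CPM in JR5558 at 4 weeks, and at 0.736, 1.19 and 0.836 CPM against 29.3, 26.0 and 35.5 CPM at 8 weeks. It rose by 5.01 ± 0.20 (adjusted p = 2.03e-12) and 5.00 ± 0.19 (adjusted p = 1.55e-12) on the log2 scale, without overlap. Rps13-ps2, another copy of the same parent, went the other way, from 1.94, 2.05 and 0.793 CPM to 0.168, 0.210 and 0.147 CPM at 4 weeks and from 1.56, 2.71 and 1.51 CPM to 0.246, 0.224 and 0.191 CPM at 8 weeks. It fell by 3.15 ± 0.54 (adjusted p = 0.000893) and by 3.13 ± 0.51 (adjusted p = 0.000660), also without overlap. The 453 bases of Rps13-ps2 were identical to Rps13.

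The parent Rps13, a protein of the small ribosomal subunit, was at 89.2, 101 and 80.3 CPM among controls and 38.4, 52.1 and 34.8 CPM in JR5558 at 4 weeks. The difference passed (-1.12 ± 0.28, adjusted p = 0.0200), but not without control replicate 2, or replicate 1 or 3 of JR5558 (adjusted p 0.0653 to 0.0774), nor in DESeq2 (adjusted p = 0.0664). The 8-week levels were 89.8, 81.5 and 91.2 CPM against 20.0, 60.4 and 74.6 CPM, with a wide spread in JR5558, and did not pass (-0.80 ± 0.28, adjusted p = 0.120). The sum of Rps13 and its 3 copies did not pass at either age (-0.47 ± 0.18, adjusted p = 0.145, and -0.16 ± 0.18, adjusted p = 0.711).

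Rpl3 belongs to the large ribosomal subunit. Its copy Rpl3-ps1, on the X chromosome, stood at 33.7, 32.3 and 34.3 CPM among controls and 108, 123 and 134 CPM in JR5558 at 4 weeks, and at 33.1, 29.9 and 32.0 CPM against 137, 146 and 156 CPM at 8 weeks. It rose by 1.85 ± 0.10 (adjusted p = 1.23e-10) and 2.17 ± 0.10 (adjusted p = 1.56e-11) on the log2 scale. Its fellow copy Rpl3-ps2 rose from 0.424 ± 0.307 to 2.14 ± 0.404 CPM at 4 weeks (adjusted p = 0.00163) and from 0.918 ± 0.189 to 2.74 ± 0.145 CPM at 8 weeks (adjusted p = 0.0212). The parent fell, from 379.9 ± 5.82 to 227 ± 10.3 CPM (adjusted p = 2.15e-07) and from 414 ± 4.75 to 239.6 ± 8.53 CPM (adjusted p = 5.98e-08). The sum of the 3 genes was lower, by log2 fold changes of -0.26 ± 0.07 (adjusted p = 0.0223) and -0.23 ± 0.07 (adjusted p = 0.0451). Its call ended at 4 weeks without replicate 1 of the controls or 1 or 2 of JR5558 (adjusted p 0.0659 to 0.114), and at 8 weeks without any 1 of the 6 libraries (adjusted p 0.0724 to 0.222). It also ended at 4 weeks when only the groups compared were fitted (adjusted p = 0.186) and at 8 weeks without a filter on low counts (adjusted p = 0.112).

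Copies of Rps2 and Rps15a, both proteins of the small subunit, were low, and the 3 described first stood under 0.5 CPM in both control groups, so that their place among the copies rests on their JR5558 level. Rps2-ps6 had 1 count in the 3 control libraries of 4 weeks together and 101 in JR5558, a ratio of 92.8 after scaling to library totals (95% counting interval 16.3 to 3700, counting error only). Its 8-week levels were 0.276, 0 and 0.104 CPM against 2.80, 2.51 and 3.34 CPM (log2 fold change 4.34 ± 0.60, adjusted p = 9.43e-05). Rps15a-ps3 rose from 0.154 ± 0.0886 to 2.22 ± 0.871 CPM at 4 weeks (adjusted p = 0.000267) and from 0.229 ± 0.120 to 2.31 ± 0.901 CPM at 8 weeks (adjusted p = 0.000706). Rps15a-ps5 rose from 0.104 ± 0.00937 to 0.812 ± 0.360 CPM (adjusted p = 0.0128) and from 0.0709 ± 0.0614 to 1.18 ± 0.0415 CPM (adjusted p = 0.00150). In these 3 copies the groups did not overlap at either age.

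Other ribosomal protein copies passed by smaller margins. Rps2-ps13 stood at 11.2 ± 2.10 against 17.8 ± 4.70 CPM at 4 weeks (adjusted p = 0.0390) and 11.9 ± 1.13 against 19.6 ± 3.12 CPM at 8 weeks (adjusted p = 0.0342). Rps15a-ps7 passed at 4 weeks (0.625 ± 0.255 against 1.90 ± 0.420 CPM, adjusted p = 0.0320) and not at 8 weeks (adjusted p = 0.596). Rps2-ps10, annotated as a transcribed processed pseudogene, was lower at 4 weeks with groups that overlapped (9.15, 11.4 and 6.77 against 3.88, 5.51 and 6.82 CPM, adjusted p = 0.0449) and did not pass at 8 weeks (adjusted p = 0.970). Fitting only the groups compared ended these 4-week calls (adjusted p = 0.131, 0.0980 and 0.161). Rpl30-ps10, on the X chromosome, passed at 4 weeks and is taken up with age below.

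The parents Rps2 and Rps15a were lower at 4 weeks (-0.47 ± 0.07, adjusted p = 0.000352, and -0.32 ± 0.08, adjusted p = 0.0166) and did not pass at 8 weeks (adjusted p = 0.265 and adjusted p = 0.0981). Their sums with their copies passed as lower at 4 weeks (adjusted p = 0.00396 and adjusted p = 0.0375) and did not at 8 weeks (adjusted p = 0.743 and adjusted p = 0.206). The Rps15a call at 4 weeks ended without replicate 1 of the controls or 1 or 2 of JR5558 (adjusted p 0.0546 to 0.0739). That on its sum ended without these or control replicate 3 (adjusted p 0.0983 to 0.151). Both ended with only the groups compared (adjusted p = 0.0970 and 0.178).

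Among the chromatin copies, Hmgb1-ps2, on the X chromosome, stood at 3.66, 3.18 and 2.29 CPM among controls and 10.6, 10.8 and 13.4 CPM in JR5558 at 4 weeks, and at 6.35, 3.57 and 4.54 CPM against 12.9, 11.5 and 13.6 CPM at 8 weeks. It rose without overlap by 1.93 ± 0.21 (adjusted p = 7.33e-06) and 1.35 ± 0.20 (adjusted p = 0.000273) on the log2 scale. Its parent Hmgb1, which encodes a protein that bends DNA, fell by 0.71 ± 0.10 (adjusted p = 0.000173) and by 0.81 ± 0.10 (adjusted p = 4.09e-05). The sum of Hmgb1 and its 2 copies fell by 0.47 ± 0.10 (adjusted p = 0.00618) and by 0.54 ± 0.10 (adjusted p = 0.00229). H2bu1-ps, annotated as protein coding, was lower at 4 weeks (1.22 ± 0.697 against 0.317 ± 0.0637 CPM, adjusted p = 0.0411) and did not pass at 8 weeks (adjusted p = 0.127).

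Morf4l1-ps1, a copy of a gene of histone acetylation complexes, was at 18.9, 17.9 and 20.1 CPM against 24.5, 22.3 and 30.4 CPM at 4 weeks, where it did not pass (0.43 ± 0.13, adjusted p = 0.0530). Its 8-week levels, 14.6, 14.7 and 18.1 CPM against 26.8, 27.7 and 29.0 CPM, passed as higher (0.78 ± 0.13, adjusted p = 0.000666). The copy lay inside Lpp on the same strand, and Lpp did not pass (adjusted p = 0.873 and adjusted p = 0.990). The parent Morf4l1 was lower at both ages (-0.43 ± 0.08, adjusted p = 0.00238, and -0.49 ± 0.08, adjusted p = 0.000684). So was the sum (-0.33 ± 0.08, adjusted p = 0.0170, and -0.34 ± 0.08, adjusted p = 0.0178). The sum's call ended at 4 weeks without replicate 1 of the controls or 1 or 2 of JR5558 (adjusted p 0.0593 to 0.0924) or with only the groups compared (adjusted p = 0.0866), and at 8 weeks without control replicate 3 or JR5558 replicate 1 or 2 (adjusted p 0.0599 to 0.133).

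Mrpl48-ps, a copy of a gene of the mitochondrial ribosome, stood at 1.16, 1.24 and 0.467 CPM against 5.14, 5.51 and 4.27 CPM at 4 weeks and 0.920, 1.35 and 1.62 CPM against 7.67, 6.76 and 9.73 CPM at 8 weeks. It rose without overlap by 2.38 ± 0.31 (adjusted p = 4.78e-05) and 2.60 ± 0.29 (adjusted p = 9.02e-06). The parent Mrpl48 was lower at 4 weeks (-0.31 ± 0.08, adjusted p = 0.0320), a call that ended without any 1 library but control replicate 3 and JR5558 replicate 2 (adjusted p 0.0551 to 0.128) or with only the groups compared (adjusted p = 0.169), and did not pass at 8 weeks (adjusted p = 0.0913). The sum did not pass (adjusted p = 0.204 and adjusted p = 0.753). Bambi-ps1, a copy of a gene for a decoy receptor of the TGF-beta family, rose at 4 weeks (0.696 ± 0.166 against 2.60 ± 0.567 CPM, adjusted p = 0.00197). Its 8-week levels were 1.28 ± 0.0348 against 2.90 ± 0.953 CPM and did not pass (adjusted p = 0.0514), although the groups did not overlap.

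Bambi itself did not pass (0.51 ± 0.18, adjusted p = 0.118, and 0.45 ± 0.18, adjusted p = 0.188). The sum with its copy was higher at both ages (0.70 ± 0.16, adjusted p = 0.0111, and 0.58 ± 0.16, adjusted p = 0.0388). The 8-week call ended without any 1 library other than control replicate 2 (adjusted p 0.0593 to 0.201). Bambi-ps1 is one of the less similar copies, with 88.8% identity to its parent.

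Of the copies not annotated as processed, Tmem181b-ps stood at 29.2, 41.3 and 37.6 CPM against 76.1, 77.9 and 65.8 CPM at 4 weeks and 35.8, 27.1 and 27.5 CPM against 66.7, 63.2 and 62.3 CPM at 8 weeks. It rose by 1.01 ± 0.12 (adjusted p = 1.69e-05) and 1.05 ± 0.12 (adjusted p = 1.28e-05) on the log2 scale, without overlap. Pisd-ps1, whose parent makes phosphatidylethanolamine in mitochondria, rose from 10.9 ± 2.90 to 20.6 ± 3.09 CPM (adjusted p = 0.00180) and from 12.7 ± 1.97 to 20.5 ± 1.99 CPM (adjusted p = 0.0255). Pisd did not pass (adjusted p = 0.904 and adjusted p = 0.750). The sum of Pisd and its 2 copies was higher at 4 weeks (0.49 ± 0.11, adjusted p = 0.0130), though not without control replicate 1 or JR5558 replicate 2 (adjusted p 0.0519 to 0.0520), nor with only the groups compared (adjusted p = 0.0767).

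Both Tmem181b-ps and Dynlt1-ps1 had no gene of the parent's symbol in the table. Dynlt1-ps1, named after a dynein light chain, rose from 8.42 ± 1.03 to 20.1 ± 5.23 CPM at 4 weeks (adjusted p = 0.000108) and from 8.79 ± 0.886 to 15.6 ± 1.02 CPM at 8 weeks (adjusted p = 0.00924). The groups did not overlap at either age.

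Among the copies lower in JR5558, Smarca5-ps had the largest fall at 4 weeks. Its parent encodes an ATPase that slides nucleosomes. The copy, annotated as a transcribed processed pseudogene, stood at 1.16, 3.39 and 3.22 CPM among controls and 0.337, 0.368 and 0.0491 CPM in JR5558 at 4 weeks, and at 3.31, 2.43 and 3.08 CPM against 0.344, 0.269 and 0.716 CPM at 8 weeks. It fell by 3.34 ± 0.55 (adjusted p = 0.000591) and by 2.76 ± 0.50 (adjusted p = 0.00194), without overlap. Both JR5558 group means were under 0.5 CPM, so the copy met that limit only through the controls. The parent Smarca5 did not pass (-0.04 ± 0.09, adjusted p = 0.863, and 0.02 ± 0.09, adjusted p = 0.949).

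Ccnb2-ps, named after cyclin B2 and annotated as a transcribed processed pseudogene, stood at 9.10, 12.1 and 15.2 CPM against 7.03, 6.88 and 5.74 CPM at 4 weeks and 12.3, 13.2 and 12.1 CPM against 6.54, 5.46 and 7.11 CPM at 8 weeks. It fell by 0.90 ± 0.18 (adjusted p = 0.00317) and by 1.02 ± 0.18 (adjusted p = 0.00124), without overlap. It aligned to Ccnb2 over only 33.0% of its length with 81.5% identity. Ccnb2 itself did not pass (-0.10 ± 0.50, adjusted p = 0.944, and -0.18 ± 0.51, adjusted p = 0.906), and the sum was lower at both ages (-0.82 ± 0.17, adjusted p = 0.00451, and -0.92 ± 0.17, adjusted p = 0.00184). Ccnb2-ps lay wholly inside the zinc finger gene Zfp617 on the opposite strand, and Zfp617 fell too (-0.72 ± 0.11, adjusted p = 0.000193, and -0.57 ± 0.11, adjusted p = 0.00217). The labels do not settle whether the libraries kept strand, so reads of these 2 genes cannot be told apart.

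The olfactory receptor pseudogene Olfr1372-ps1 was lower at 4 weeks (18.0 ± 3.50 against 8.14 ± 2.18 CPM, adjusted p = 0.000645) and at 8 weeks (9.17 ± 1.59 against 5.69 ± 0.623 CPM, adjusted p = 0.0406). Gvin-ps7, named after an interferon-inducible GTPase family, was lower at 4 weeks (1.04 ± 0.154 against 0.214 ± 0.107 CPM, adjusted p = 0.0250), though not when only the groups compared were fitted (adjusted p = 0.0583), and did not pass at 8 weeks (adjusted p = 0.487). Both are annotated as transcribed unprocessed pseudogenes, so they are not retrotransposed copies by that annotation. Gvin-ps7 was under 0.5 CPM in both JR5558 groups and met that limit only through the controls.

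Several of these calls were close to the threshold and ended when 1 library was left out. Of the 27 calls at 4 weeks, 21 passed whichever 1 of the 6 libraries was left out, 17 higher and 4 lower. The call on Gvin-ps7 was lost without any library but JR5558 replicate 1 (adjusted p 0.0533 to 0.0888, log2 fold changes -2.35 to -2.04) and that on H2bu1-ps without any but control replicate 3 (0.0832 to 0.153, log2 fold changes -2.03 to -1.57). Rps2-ps13 was lost without any but JR5558 replicate 1 (0.0502 to 0.202), and its log2 fold change was lowest, 0.43, without JR5558 replicate 3. Rps2-ps10 was lost without replicate 1 or 2 of either strain (0.0771 to 0.189). Rps15a-ps7 was lost without control replicate 1 or 2 or JR5558 replicate 1 or 3 (0.0795 to 0.137), and Rps15a-ps5 without control replicate 2 or JR5558 replicate 3 (0.0561 to 0.0568).

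Of the 22 calls at 8 weeks, 17 passed in every case, 14 higher and 3 lower. Rps2-ps13 was lost without any library but JR5558 replicate 1 (adjusted p 0.0690 to 0.176). Olfr1372-ps1 (0.0659 to 0.175) and Rpl3-ps2 (0.0611 to 0.0990, log2 fold changes 1.37 to 1.59) were lost without any but control replicate 1. Pisd-ps1 was lost without control replicate 2 or 3 or JR5558 replicate 1 or 2 (0.0638 to 0.125), and Dynlt1-ps1 without replicate 3 of either strain (0.0513 to 0.0575).

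Set against the parents, no parent of a higher copy was itself higher. Of the 20 copies higher at 4 weeks, 18 had a parent in the table. These had 14 different parents, of which 9 were lower in JR5558, 0 higher and 5 not past the threshold. At 8 weeks the 16 higher copies with a parent had 13 different parents, 7 lower, 0 higher and 6 not past the threshold. Over all 130 parents, 12 were lower and 1 higher at 4 weeks, and 7 lower and 3 higher at 8 weeks, beside a background of 2.9% lower and 3.27% higher, and 2.63% and 2.54%. Copy and parent are not independent measurements where the counting could divide their reads.

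When each parent was summed with its copies, 12 of the 130 sums passed at 4 weeks (3 higher, 9 lower) and 9 at 8 weeks (4 higher, 5 lower). Leaving out JR5558 replicate 2 lowered the 4-week count to 7, and leaving out control replicate 3 or JR5558 replicate 2 or 3 lowered the 8-week count to 5. Fitting only the groups compared gave 5 and 14. In that table of 18174 rows tested, 6.1% passed at 4 weeks (3.03% higher, 3.07% lower) and 5.09% at 8 weeks (2.54% higher, 2.55% lower). Of the 14 parents of higher copies at 4 weeks, the sum was lower in 5, higher in 2 and not past the threshold in 7. At 8 weeks it was lower in 4 of 13, higher in 0 and not past the threshold in 9. The sums of Atp6v0c, Ndufs5, Glo1, Ubb, Mrpl48 and Rps13 with their copies passed at neither age. The 5 lower sums at 8 weeks were those of Rnps1, Rpl3, Hmgb1 and Morf4l1, and that of Ccnb2, whose copy was lower.

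**Figure D3:**
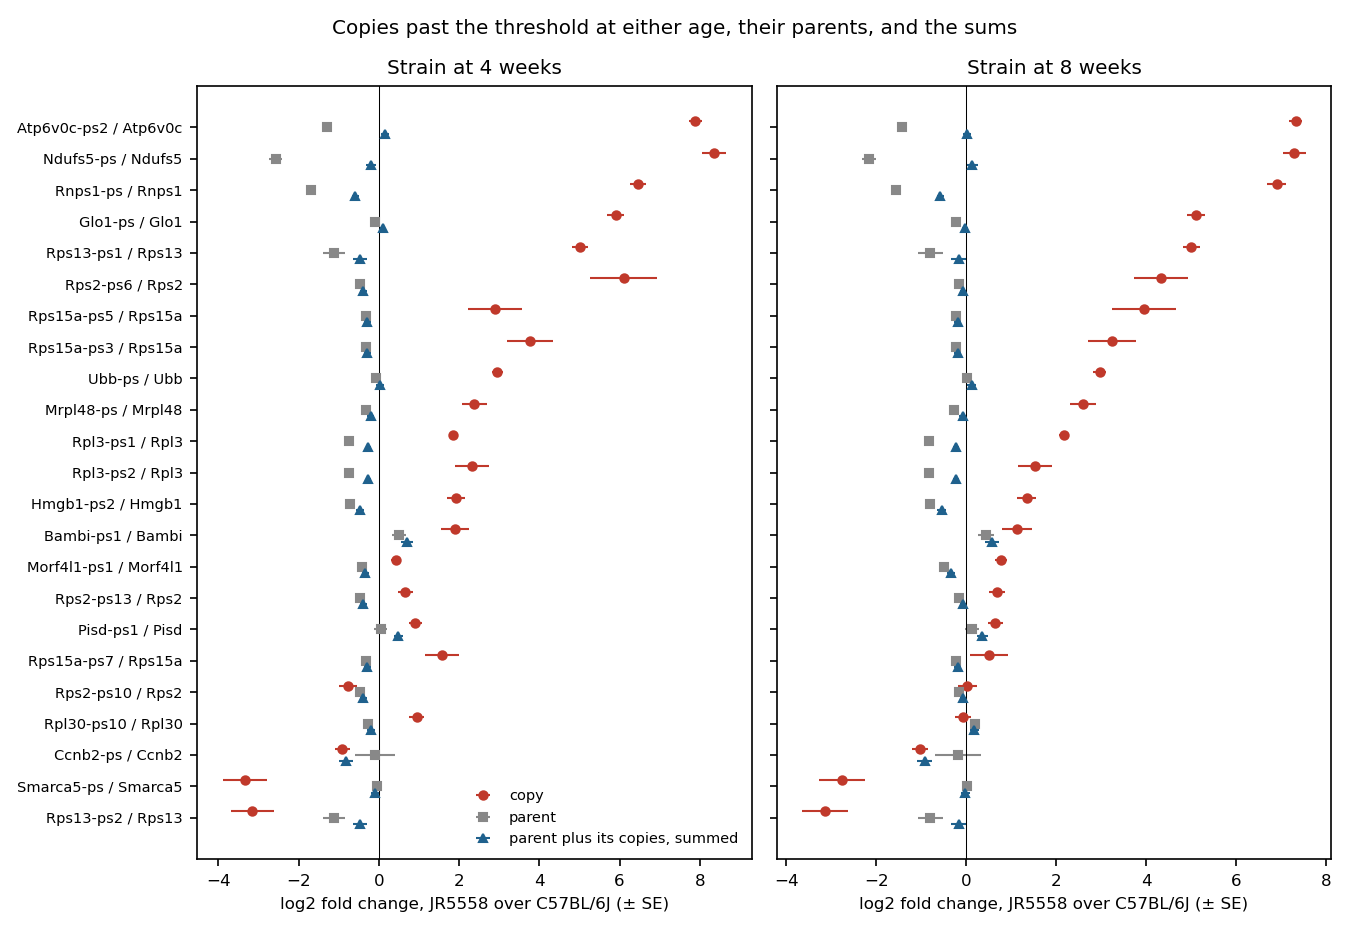
Log2 fold change (JR5558 over C57BL/6J, bars ± SE, 3 retinas per group) of each copy called at either age that has a parent (red circles), of the parent (grey squares) and of the parent summed with its copies (blue triangles), at 4 weeks on the left and 8 weeks on the right. For Atp6v0c the parent lies below 0 (-1.29 at 4 weeks), the copy far above it (7.89) and the sum near it (0.15).

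Expressed as the log2 ratio of copy to parent CPM (with 0.5 added to each), 35 of the 160 pairs had groups that did not overlap at 4 weeks and 38 at 8 weeks. These are 21.9% and 23.8% of the pairs, against 19.5% and 30.8% of all genes tested for CPM, so the counts do not stand out from that background. At both ages, 17 ratios were higher in JR5558 and 1, that of Smarca5-ps, was lower. The share of all genes apart at both ages was not computed, so this split has no background beside it. It includes Ndufs5-ps, Rps2-ps6, Rps15a-ps3, Rps15a-ps5 and Smarca5-ps, which met the 0.5 CPM limit only through 1 strain. The split is therefore given as a description only. Among the leading copies the shifts were 8.76 and 8.30 for Ndufs5-ps, 8.52 and 8.31 for Atp6v0c-ps2 and 7.21 and 7.27 for Rnps1-ps, at 4 and 8 weeks. No test was made on these ratios.

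Identity with the parent was high in called and uncalled copies alike. The 19 aligned copies that were higher at either age had a median identity of 98.8% (88.8% to 99.8%), and the 137 aligned copies called at neither age a median of 99.3% (64.9% to 100%). Of the 22 copies identical to their parent over the aligned part, Rps13-ps2 was the only one past the threshold in a strain comparison. The background was 6.16% of all genes tested at 4 weeks and 5.18% at 8 weeks. By the deposited positions, 109 copies overlapped no other gene of the table. The other 74 overlapped a gene, 31 on the same strand and 47 on the opposite strand, and 59 lay wholly inside one.

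**Figure D4:**
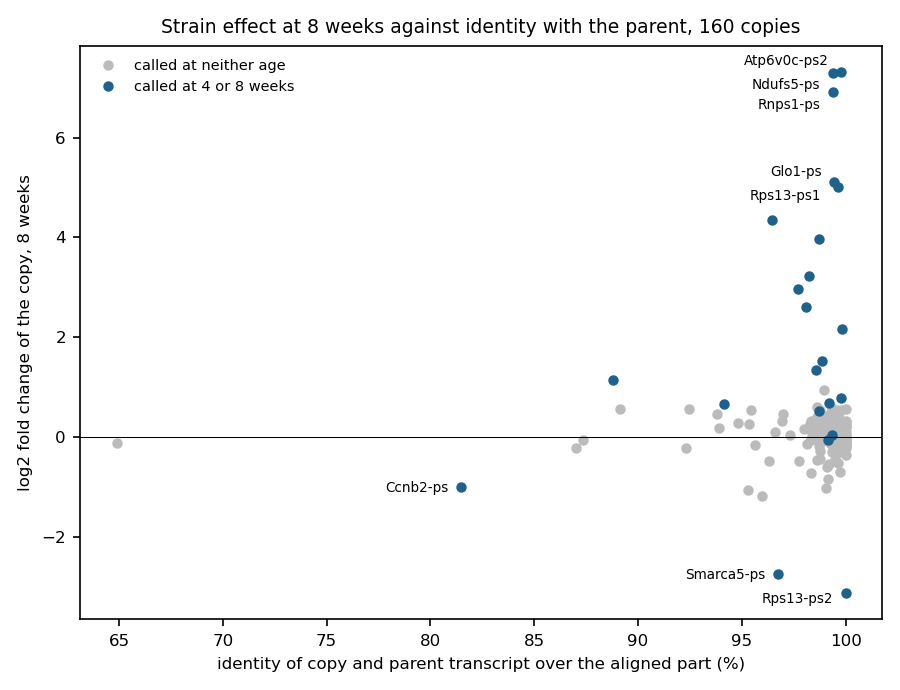
Log2 fold change of the copy at 8 weeks (JR5558 over C57BL/6J, y axis) against the identity of copy and parent transcript over the aligned part (%, x axis) for the 160 copies with a parent. Copies called at 4 or 8 weeks are blue and the others grey, and 148 of the points, blue and grey, lie at 95% or more.

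For other called copies that overlap a gene, that gene did not pass where it could be tested. Lrrc8d, opposite Rps15a-ps5, stood at 0.22 ± 0.08, adjusted p = 0.136, and 0.01 ± 0.08, adjusted p = 0.968. Pde6a, a rod phosphodiesterase subunit opposite Rps2-ps10, stood at -0.15 ± 0.07, adjusted p = 0.224, and -0.20 ± 0.07, adjusted p = 0.112. Sfi1, which shares 101 bases with Pisd-ps1 on the opposite strand, stood at 0.36 ± 0.14, adjusted p = 0.170, and 0.34 ± 0.14, adjusted p = 0.212. Dynlt1-ps1 and Rps15a-ps3 each lay inside a long non-coding RNA gene on the opposite strand that was not among the genes tested.

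The 28 copies called at either age lay on 12 chromosomes, 5 of them on X (Hmgb1-ps2, Rpl3-ps1, Rpl3-ps2, Rpl30-ps10 and Rps2-ps13), where 15 of the 183 copies lie. The share of all genes on X that passed was not computed, so this count has no background beside it. In 4 of the 5 copies on X the 8-week difference, between libraries of 1 kind by Xist and Ddx3y, passed as well. Of these, the 8-week calls on Rpl3-ps2 and Rps2-ps13 each ended without any 1 of 5 libraries. Mid1-ps1, the 1 copy placed on the Y chromosome, had counts in all 12 libraries, also in the 9 with Ddx3y at 0. It stood at 1.66, 1.62 and 1.77 CPM in the control retinas of 4 weeks and at 0.590, 2.57 and 0.0981 CPM in the JR5558 retinas of that age.

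The 155 copies called at neither age had log2 fold changes from -1.55 to 1.57 at 4 weeks (median -0.02) and from -1.67 to 0.94 at 8 weeks (median 0.04). Several of the most abundant copies were among them. Rpl17-ps10, a copy of a large subunit protein gene, stood at 87.4 ± 22.4 against 80.4 ± 27.4 CPM at 4 weeks (adjusted p = 0.772) and 117 ± 4.12 against 117 ± 12.3 CPM at 8 weeks (adjusted p = 0.951). Hmgn2-ps, named after a nucleosome-binding protein, stood at 54.2 ± 22.2 against 80.8 ± 29.98 CPM (adjusted p = 0.196) and 79.0 ± 8.14 against 90.3 ± 3.58 CPM (adjusted p = 0.808).

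Ap2m1-ps, a copy of a clathrin adaptor gene, stood at 74.3 ± 23.2 against 76.2 ± 22.5 CPM at 4 weeks (adjusted p = 0.969) and 60.3 ± 6.41 against 68.9 ± 9.62 CPM at 8 weeks (adjusted p = 0.770). For Gpx4-ps2, a copy of a gene that protects lipids from peroxidation, the values were 59.6 ± 2.96 against 68.1 ± 7.98 CPM (adjusted p = 0.381) and 68.8 ± 5.41 against 78.3 ± 10.4 CPM (adjusted p = 0.532). Rpl17-ps3 stood at 62.1 ± 9.81 against 49.4 ± 1.73 CPM at 4 weeks (adjusted p = 0.0818) and at 57.3 ± 0.454 against 59.6 ± 8.10 CPM at 8 weeks (adjusted p = 0.967).

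Between 4 and 8 weeks few copies moved. In C57BL/6J 2 of 183 passed (1 higher, 1 lower), 1.09% against a background of 0.431% (0.202% higher, 0.229% lower). Without a filter on low counts 7 copies passed. Rpl30-ps10 rose from 5.10, 7.00 and 8.45 CPM to 11.5, 15.4 and 13.3 CPM (0.99 ± 0.18, adjusted p = 0.0181), and Olfr1372-ps1 fell from 15.9, 22.1 and 16.2 CPM to 7.41, 10.5 and 9.61 CPM (-0.95 ± 0.19, adjusted p = 0.0321). In both the ages did not overlap. The Rpl30-ps10 call ended without replicate 2 of 4 weeks or replicate 2 or 3 of 8 weeks (adjusted p 0.0583 to 0.151), and that of Olfr1372-ps1 without replicate 2 of 4 weeks or any 1 of 8 weeks (adjusted p 0.0966 to 0.147). A fit of only the C57BL/6J groups called neither (adjusted p = 0.0661 and 0.0530).

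Rpl30-ps10, a copy of a large subunit protein gene, was lowest in the control retinas of 4 weeks. In JR5558 it stood at 12.6, 15.4 and 12.0 CPM at 4 weeks and 12.8, 12.0 and 14.6 CPM at 8 weeks, which overlapped. Its strain difference was 0.94 ± 0.18 (adjusted p = 0.00223) at 4 weeks and -0.07 ± 0.17 (adjusted p = 0.893) at 8 weeks. The difference of these effects was -1.01 ± 0.25 and did not pass (adjusted p = 0.253). The parent Rpl30 passed in neither strain comparison (adjusted p = 0.186 and adjusted p = 0.370).

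In JR5558 no copy passed between the ages by edgeR's quasi-likelihood test (background 1.51%), while 26 had an unadjusted p under 0.05 and DESeq2 called 1. Without a filter on low counts 10 passed, and 4 passed without JR5558 replicate 3 of 4 weeks. The lowest adjusted p was 0.0585, of Nsa2-ps1. By the same test, the strain effect differed between the ages in no copy past the threshold (background 0.0927%), with 11 at an unadjusted p under 0.05 and 1 called by DESeq2. Without a filter on low counts 1 passed, as without control replicate 3 of 4 weeks. For the 7 leading copies the difference of the strain effects ran from -1.06 ± 0.67 for Ndufs5-ps to 0.45 ± 0.41 for Rnps1-ps, none past the threshold (lowest adjusted p 0.622, of Rpl3-ps1).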

How the data were processed

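Poly-A RNA of 12 retinas was sequenced, and the labels place 3 mice in each of 4 groups. The tools fastp, HISAT2 2.0.5 and featureCounts 1.5.0-p3 and the build mm10 are named in the submitters' processing notes. Whether reads with several matches were counted, and whether strand was used, is not given in the sources used here. The deposited table holds raw counts per gene and FPKM values by the authors, used only to compare levels between genes.

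Genes kept by filterByExpr (groups as design, at least 10 counts, 15 in total) entered one fit of all 12 libraries with edgeR 4.0.16 in R 4.3.3 (TMM scaling, 1 mean per group, quasi-likelihood test, 2-sided, Benjamini-Hochberg over 18334 genes, threshold 0.05). The SE of a log2 fold change was derived from the quasi-likelihood test, as its absolute value over the square root of the F statistic. It thus rests on a spread estimated over all 12 libraries, with 3 mice per group. SD of CPM has n = 3. All members, their lists and the tests were chosen with earlier results of these data known. Genes were named if they passed the threshold, ranked among the 8 highest by mean CPM, stood next to the 0.5 CPM limit, or were parents of these or overlapped them. A few others are named as the extreme of a count.

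Each copy's GENCODE M21 transcript was aligned to its parent's with Biopython 1.88 (local, match 2, mismatch -3, gap open -6, gap extend -2). Identity is identical bases over alignment columns, gaps included. Only 2 of 183 members had the same start and end in the deposited table as in GENCODE M21, so positions are printed from M21 (GRCm38). Overlaps use the deposited positions. The sequence of 1 further leading copy is not reported here.

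Nothing in the labels says that replicate numbers pair the mice, so the main fit used no pairing. Correlations of library deviations were -0.0907 to 0.0867 for same-numbered libraries and -0.0832 to 0.114 for differently numbered ones. With 3 libraries per group these values cannot settle whether a pairing exists. Alternatives were RLE size factors, no filter, at least 1 CPM in 3 libraries, DESeq2 1.42.0, fits of the compared groups alone, a block for replicate number, omission of each library and other pseudocounts for the ratio. Sums of parent and copies, and a fit without the 3 JR5558 libraries of 4 weeks, were chosen after seeing the data. On simulated data for 8 weeks (18334 genes), edgeR recovered 23, 30, 44 and 42 of 50 genes changed 1.5-fold, 2-fold, 4-fold and 8-fold, with 9 false calls among 148.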

Additional observations from a re-analysis of the deposited data

Results flagged for a closer look

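Akt2-ps, a copy of the gene for a kinase of insulin signalling, is named after its values were seen. Its log2 ratio to Akt2 was shifted in opposite directions at the 2 ages, by -0.26 in JR5558 at 4 weeks and by 0.37 at 8 weeks, with groups that did not overlap at either age. Whether the shifts differ was not tested. The copy held 3.05% ± 0.248 (SD, n = 3) of the pair's counts in C57BL/6J and 2.48% ± 0.133 in JR5558 at 4 weeks, and 1.72% ± 0.0712 and 2.52% ± 0.725 at 8 weeks.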

How the results depend on the processing

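The copies called between the strains numbered 22 to 33 at 4 weeks and 17 to 27 at 8 weeks over all alternatives. With each library left out in turn they were 22 to 28 and 17 to 21, parents 10 to 16 and 8 to 9, and sums 7 to 14 and 5 to 7. Age calls were 0 to 3 in C57BL/6J and 0 to 4 in JR5558, and interaction calls 0 to 1. With the replicate number as a block, 24 and 22 copies were called between the strains, and no count of calls moved by over 1.5 times. The block ended the 4-week calls on H2bu1-ps, Rps15a-ps7, Rps2-ps10, Rps2-ps13 and the parent Mrpl48, and the 8-week calls on Glo1 and the Rpl3 sum (adjusted p 0.0526 to 0.0767). Without a filter on low counts, 7 copies passed for age in C57BL/6J, 10 for age in JR5558 and 1 for the interaction. At least 1 CPM in 3 libraries gave 1 copy for age in JR5558, as did DESeq2, which also gave 1 for the interaction. Fitting only the groups compared gave 0 copies for age in C57BL/6J, 2 for age in JR5558, 17 parents at 8 weeks, and 5 sums at 4 weeks and 14 at 8 weeks. The causes were not tested. Without the 3 JR5558 libraries of 4 weeks, 25 copies passed at 8 weeks. The shift of the ratio of Rps13-ps2 to Rps13, with groups that overlapped, reversed with 2 CPM added in place of 0.5, to 0.38 at 4 weeks and 0.11 at 8 weeks. Depth limits the low copies: at 0.5 CPM a library holds about 10 counts.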
